A study of Mus musculus with 9 samples.

Results

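The enzymes that make and break down cyclic AMP, and the protein kinase A (PKA) subunits and anchors that respond to it, were followed at the transcript level in BeCon mouse ovarian tumor cells. Members were the protein-coding records of the deposited gene table whose names begin with Adcy and a number (adenylyl cyclases), Pde, a number and a letter (cyclic nucleotide phosphodiesterases), Prkac or Prkar (PKA subunits) or Akap and a number (A-kinase anchoring proteins), with the 4 Pde4 genes left out. This rule uses names only. It gave 53 of 48230 gene records: 10 adenylyl cyclases, 21 phosphodiesterase records, 6 PKA subunits and 16 anchoring proteins. They cover 52 gene names, because Pde2a has 2 records.

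Cyclic AMP is made from ATP by adenylyl cyclases, most of which sit in the plasma membrane under the control of stimulatory and inhibitory G proteins. It binds the regulatory subunits of PKA and so frees the catalytic subunits, which phosphorylate many proteins, among them the transcription factor CREB and the salt-inducible kinases. Phosphodiesterases hydrolyse cyclic nucleotides, and anchoring proteins hold PKA, often together with phosphatases and phosphodiesterases, at particular places in the cell.

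Messenger RNA was sequenced with a strand-marking kit in 9 libraries from 3 conditions. Ascites of B6 mice that carried BeCon tumors gave 4 libraries after vehicle and 4 after YKL-05-099, which inhibits the salt-inducible kinases, and viable CD45-, MHCI+ cells had been sorted from it. A single library, with no replicate, came from BeCon cells in vitro. No source used here gives the genotype of BeCon cells, the dose and length of treatment or the age of the mice, or says whether each numbered library came from its own animal, and p-values therefore cover the spread between libraries, which may be technical. The library names carry another prefix in each mouse group, so any cage or batch behind it cannot be told apart from treatment. Values are FPKM (fragments per kilobase of transcript relative to all mapped fragments of the library), as the authors deposited them. FPKM are per length, so the levels of different genes can be set side by side.

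From the smallest values of long single-transcript genes, the depth was roughly 23000000 to 35000000 fragments per library. Of the marker genes of the ovarian surface and mesothelium, Wt1 stood between 373.4 and 564.8 FPKM and Krt18 between 155.8 and 251.4 FPKM over all libraries. After YKL-05-099, 4 of 8 tested ovarian and Mullerian epithelial markers fell and 2 rose, and 2 of 4 tested mesothelial markers fell. Over all genes tested 15.1% fell and 28.0% rose. The log2 fold change was -0.12 for Wt1, which is on both lists, -0.64 for Gata6 and 0.53 for Krt18. Lrrn4, Krt7 and Muc16 were at 5.70 FPKM or more in the mouse libraries and at 0.990, 0.0804 and 0.112 FPKM in culture, and the mesothelial marker Calb2 was listed at 0 in all libraries. The Mullerian transcription factor gene Pax8 and the epithelial genes Epcam and Cdh1 stayed under 1 FPKM in all 9 libraries. Transcripts of leukocyte marker genes were present and differed between the groups. The summed FPKM of 15 pan-leukocyte markers ran from 52.3 to 101.7 in vehicle, from 19.8 to 36.7 in YKL-05-099 and stood at 14.7 in culture, and 7 of its 9 tested genes fell. In culture 4 of the 15 reached 1 FPKM, the highest being Cytip at 5.67 and Ptpn6 at 4.23 FPKM. Ptprc, Laptm5 and Tyrobp were listed at 0 there. The mean used as a covariate below takes in all 15, Cytip and Ptpn6 included. For 12 macrophage markers the sums were 133.0 to 285.8, 19.95 to 71.9 and 10.6 FPKM, and 7 of 8 tested genes fell. Most of the sum in culture was Cd68, at 10.04 FPKM, the only macrophage marker to reach 1 FPKM there. Ptprc, which encodes CD45 itself, was at 0.346 to 0.772 FPKM in vehicle and at 0.0308 to 0.276 FPKM in YKL-05-099 libraries. T and NK cell markers reached no more than 0.544 FPKM in sum. The 6 erythroid markers summed to 243.9 to 1487 FPKM in vehicle, 1.45 to 92.8 FPKM in YKL-05-099 and 0.188 FPKM in culture, and all 5 tested fell. The 7 fibroblast markers summed to 655.5 to 707.7, 555.04 to 633.9 and 337.6 FPKM, and 5 of 6 tested fell, Col1a2 by 2.40 on the log2 scale. Most of each sum was Dcn, the tested marker that was not called (group means 522.6 and 502.6 FPKM, limma adjusted p = 0.431). In culture 5 of the 7 reached 1 FPKM, among them Dcn at 243.2 and Col1a1 at 32.2 FPKM, while Col1a2 was at 0.0668 FPKM and Lum at 0. Whether these transcripts came from tumor cells or from other cells was not tested. The part of erythroid and fibroblast transcripts in the results below was not tested. Where cell types are mixed, fewer cells of a type and less RNA per cell cannot be told apart.

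The comparison of YKL-05-099 with vehicle asked which parts of the cyclic AMP machinery changed in tumor cells of treated mice. The transcript of 1 PKA regulatory subunit, Prkar2b, was 2.73-fold higher, those of the phosphodiesterases Pde10a and Pde3b were 2.92-fold and 2.11-fold higher, and those of the anchoring proteins Akap12 and Akap5 were 1.90-fold higher and 1.83-fold lower, as ratios of group means. Of the adenylyl cyclase transcripts, the 3 that entered the test were not called, and the other 7 lay under its filter. Members entered the test with at least 1 FPKM in at least 4 of the 8 mouse libraries, which 26 of 53 did. No member entered through libraries of 1 group only. By limma on log2(FPKM + 1), with adjusted p under 0.05 over all genes, 9 of the 26 rose and 4 fell. Of all 11788 genes tested 43.2% were called, 28.0% higher and 15.1% lower, so the members' share lay near the background. The median log2 fold change was 0.12 over the 26 members and 0.05 over all genes tested. A change of at least 0.5 log2 units was called for 5 members, 4 higher and 1 lower, against 11.4% of all genes, 7.39% higher and 4.03% lower. The vehicle and treated ranges were separate for 13 of the 26, against 40.0% of all genes.

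**Figure D1:**
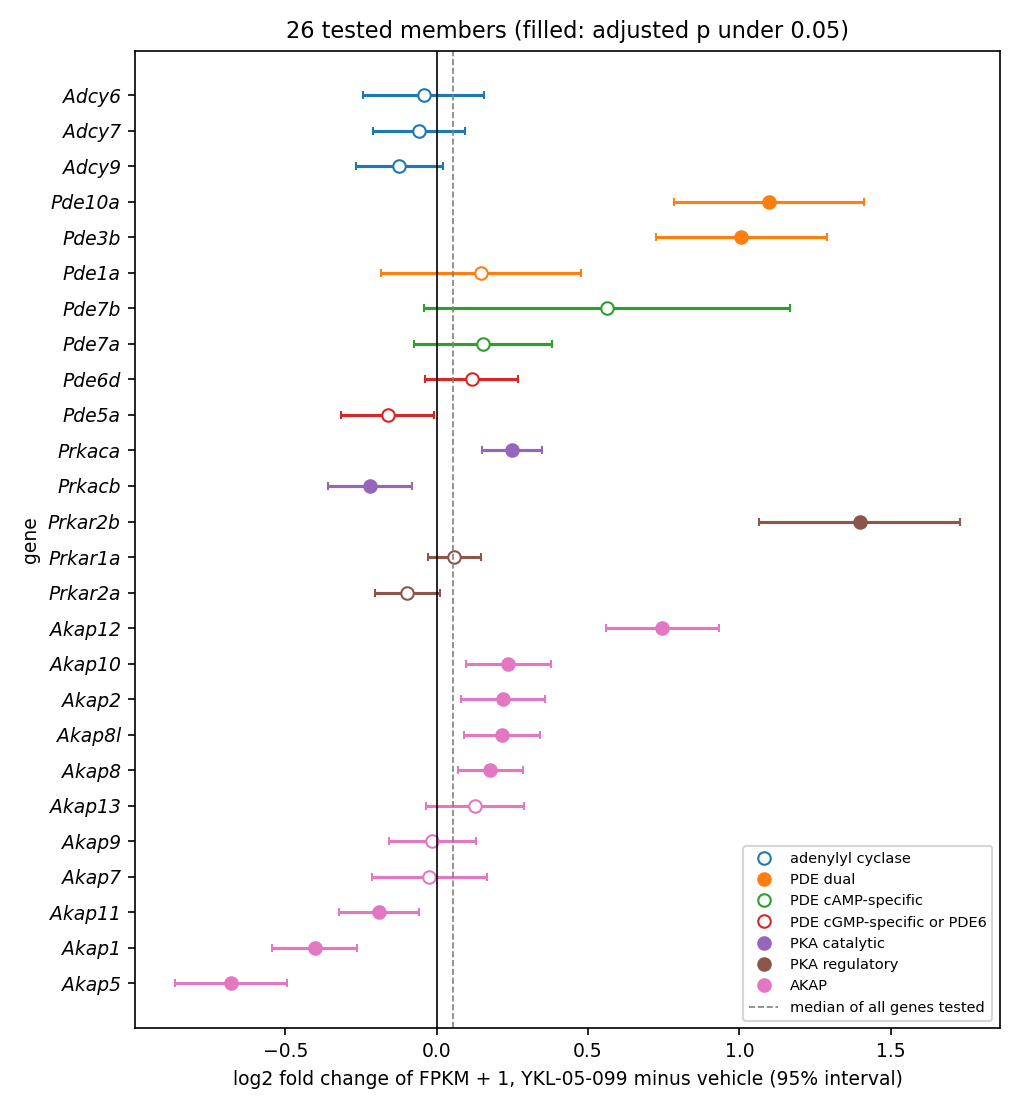
Log2 fold change of FPKM + 1 (x axis, YKL-05-099 minus vehicle, 4 libraries each) with its 95% interval from limma for the 26 tested members, grouped by role; filled points passed an adjusted p of 0.05 over all genes. Prkar2b lies highest at 1.40 and Akap5 lowest at -0.68, while the 3 adenylyl cyclases lie between -0.12 and -0.04.

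Among the PKA subunits the regulatory subunit gene Prkar2b (RII beta; chromosome 12, 31958476 to 32061296, minus strand, GRCm38) had the largest log2 fold change of FPKM + 1 among the 26 tested members, while by the ratio of group means Pde10a rose more. It stood at 14.5, 11.9, 9.66 and 16.6 FPKM in the vehicle libraries and at 43.0, 36.0, 31.4 and 32.9 FPKM in the YKL-05-099 libraries. Every treated library was above every vehicle library, and the lowest treated value, 31.4 FPKM, lay well above the highest vehicle value, 16.6 FPKM. The log2 fold change was 1.40 (SE 0.149, limma adjusted p = 0.000104) and ran from 1.27 to 1.51 when any single library was left out. Adding the mean pan-leukocyte marker level as a covariate gave 1.26 which still passed (limma adjusted p = 0.0384). In the fit with this covariate the median standard error over all genes was 1.83 times that without it, so a call can be lost there with little change in the fold. The covariate, a mean of log2(FPKM + 1), ran from 1.74 to 2.44 in vehicle and from 0.730 to 1.40 in YKL-05-099 libraries. Because these ranges do not overlap, the fit cannot fully tell marker level and treatment apart, for any gene, whether its call was kept or lost. Leukocyte markers were lowest in YKL-05-099 replicates 1 and 4, where Prkar2b was 43.0 and 32.9 FPKM, against 36.0 and 31.4 FPKM in replicates 2 and 3.

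The other regulatory subunits moved little. Prkar1a (RI alpha), the most abundant member in every library, was at 245.4, 239.1, 235.7 and 241.5 FPKM in vehicle and 258.1, 248.8, 241.9 and 253.2 FPKM in YKL-05-099 libraries. Its ranges overlapped, and the log2 difference was 0.06, with a 95% interval from -0.03 to 0.15. Prkar2a (RII alpha) was at 13.5 ± 0.463 FPKM in vehicle and 12.5 ± 0.446 FPKM after YKL-05-099 (SD, n = 4 each). Its ranges did not overlap, yet it missed the threshold (log2 difference -0.10, limma adjusted p = 0.128), and it was called lower after median-of-ratios (-0.15) or quantile scaling (-0.17). Prkar1b did not exceed 0.558 FPKM in all libraries and was not tested.

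Both catalytic subunit genes were called, in opposite directions and by small amounts. Prkaca (C alpha) rose from 53.3, 52.9, 51.8 and 51.0 FPKM in vehicle to 64.0, 60.6, 58.9 and 65.8 FPKM in YKL-05-099 libraries (log2 fold change 0.25 with SE of 0.0448, limma adjusted p = 0.00186). Prkacb (C beta) fell from 40.5, 37.2, 39.1 and 35.3 FPKM to 34.6, 31.5, 29.6 and 34.3 FPKM (log2 fold change -0.22 with SE of 0.0622, limma adjusted p = 0.0172). Neither gene's groups overlapped. Leukocyte markers fell in the treated libraries too, and with their mean as a covariate neither call was kept, at log2 fold changes of 0.18 and -0.33.

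As a share of the summed FPKM of all 6 subunit genes, Prkar2b made up 3.67% ± 0.804 in vehicle and 9.08% ± 1.006 in YKL-05-099 libraries (SD, n = 4 each). Prkar1a made up 67.2% ± 0.373 and 63.6% ± 0.849. The 4 regulatory genes together held 74.8% ± 0.780 and 75.9% ± 0.688, ranges that overlapped. Among RII transcripts alone, Prkar2b went from 48.9% ± 6.07 to 73.9% ± 2.99, so that RII beta stood level with RII alpha in vehicle and well above it after treatment. Between the catalytic genes, the share of Prkaca was 57.9% ± 1.15 in vehicle and 65.7% ± 0.675 after YKL-05-099. These shares are descriptions with no test, and are of transcripts, not of protein.

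**Figure D2:**
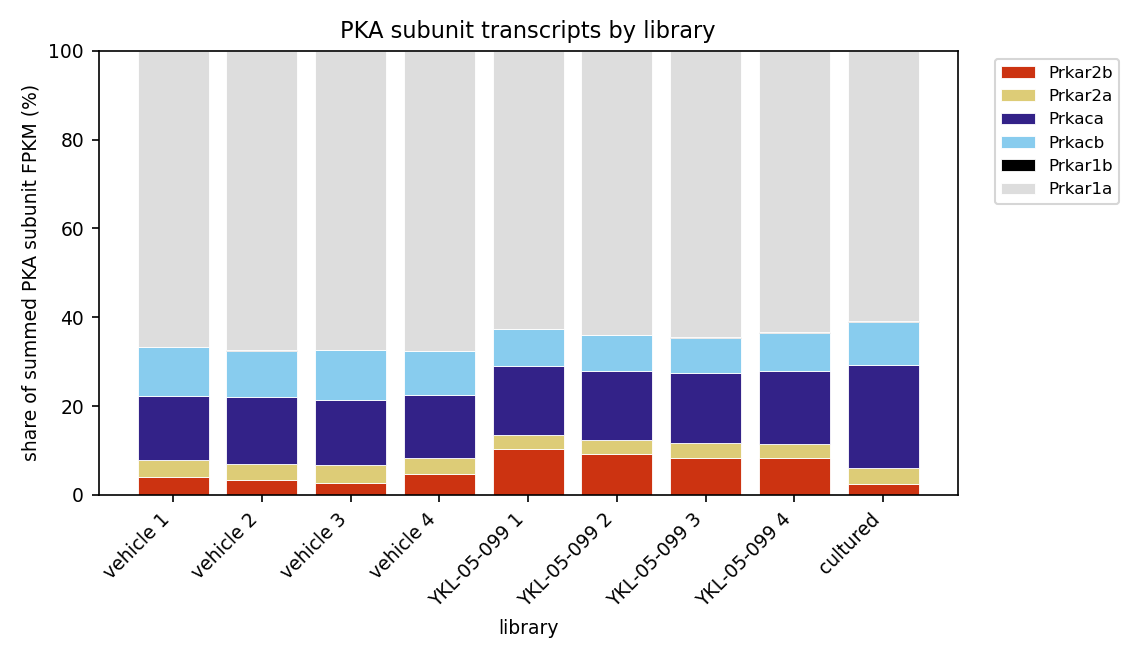
Share of each PKA subunit gene in the summed FPKM of the 6 genes (y axis, %), by library (x axis). The Prkar2b share lies between 2.76% and 4.63% in vehicle, between 8.25% and 10.4% in YKL-05-099 libraries and at 2.501% in the cultured library.

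PKA subunit genes are held here beside the sequences upstream of their RefSeq start sites (GRCm38.p6), since CREB, a PKA substrate, binds the motif TGACGTCA or its shorter form TGACG. Both strands were searched in the 250 bases before each start site, and every TGACGTCA also counts as TGACG. Windows were on hand for 41 of the 52 member names. The full motif was in 1 of their 78 windows (1.28%), against 1.55% of all 32851 windows, and the short form was in 12 (15.4%) against 17.8%. Counted by gene, with a match in any of its windows, the full motif was in 2.44% of the 41 member genes against 1.77% of all genes, and the short form in 24.4% against 19.8%. The sequences shown are those upstream of Prkar2b, of both catalytic subunits and of Prkar1a around its full motif. Bases that an annotated GENCODE exon covers were left off, except around the Prkar1a motif. Capitals mark the motif in either orientation.
Prkar2b, chr12:32061297-32061527, minus strand: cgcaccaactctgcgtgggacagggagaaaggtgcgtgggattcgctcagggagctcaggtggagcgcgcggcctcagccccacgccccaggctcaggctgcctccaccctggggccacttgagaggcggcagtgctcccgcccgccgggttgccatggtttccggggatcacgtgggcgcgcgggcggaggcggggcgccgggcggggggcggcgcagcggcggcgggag
Prkaca, chr8:83972728-83972977, plus strand: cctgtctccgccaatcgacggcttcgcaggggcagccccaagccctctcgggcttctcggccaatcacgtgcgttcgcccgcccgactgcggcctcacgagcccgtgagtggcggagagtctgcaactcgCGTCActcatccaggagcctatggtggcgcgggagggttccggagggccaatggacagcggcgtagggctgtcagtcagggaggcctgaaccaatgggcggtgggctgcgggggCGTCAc
Prkacb, chr3:146812991-146813196, minus strand: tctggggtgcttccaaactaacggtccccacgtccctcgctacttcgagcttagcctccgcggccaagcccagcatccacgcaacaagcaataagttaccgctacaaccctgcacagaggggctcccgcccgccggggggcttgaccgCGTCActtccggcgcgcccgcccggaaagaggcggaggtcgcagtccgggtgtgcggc
Prkar1a, chr11:109650889-109650918, plus strand: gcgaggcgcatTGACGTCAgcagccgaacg
No match was in either of the 2 Prkar2b windows. Prkaca, which rose slightly, held 2 short matches in 1 of its 2 windows, and Prkacb, which fell slightly, held 1 in 1 of its 3 windows. The full motif lay 49 bases before 1 of the 6 Prkar1a start sites, a gene that was not called. A match describes letters and is not evidence of binding.

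Of 16 anchoring protein genes 11 were tested, and 5 rose, 3 fell and 3 were not called, where 28.0% of all genes rose and 15.1% fell. Akap12 (gravin; chromosome 10, 4266329 to 4359468), a scaffold that binds PKA and protein kinase C at the plasma membrane, rose from 2.82, 2.57, 2.88 and 3.53 FPKM in vehicle to 5.99, 5.59, 5.22 and 5.61 FPKM in YKL-05-099 libraries. All treated values lay above all vehicle values (log2 fold change 0.75, SE 0.0832, limma adjusted p = 0.000131). Akap5 (chromosome 12, 76324891 to 76334153), a membrane scaffold that holds PKA beside calcineurin and protein kinase C, went the other way, from 4.29, 4.54, 4.74 and 4.85 FPKM to 2.21, 2.75, 2.21 and 2.87 FPKM. Its groups did not overlap either (log2 fold change -0.68, limma adjusted p = 0.000222). In vehicle Akap5 was the higher of the pair in every library, and in treated cells Akap12 was. Leukocyte markers were lower in the treated libraries. With their mean as a covariate Akap5 still passed (log2 fold change -0.78, limma adjusted p = 0.0245), and Akap12 did not (0.52, limma adjusted p = 0.0574).

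Akap1, which tethers PKA to the outer mitochondrial membrane, fell from 35.3 ± 0.808 to 26.5 ± 2.49 FPKM (SD, n = 4 each; log2 fold change -0.40, limma adjusted p = 0.000865). Its groups did not overlap. Smaller rises were called for the nuclear anchoring protein genes Akap8 (25.2 to 28.1 FPKM in vehicle, 29.1 to 31.5 FPKM in treated libraries) and Akap8l (24.6 ± 1.83 to 28.6 ± 0.932 FPKM), and for Akap10 (12.7 ± 1.07 to 15.1 ± 0.576 FPKM), a dual-specificity anchor that binds RI and RII. Akap2, the anchoring protein gene with the highest level, went from 80.1, 83.5, 84.4 and 75.1 FPKM to 97.8, 92.3, 102.2 and 84.9 FPKM. That rise (log2 fold change 0.22, limma adjusted p = 0.0182) was lost when YKL-05-099 replicate 1 (0.20, adjusted p = 0.0502) or 3 (0.18, adjusted p = 0.051) was left out. The Akap2 record overlaps that of Pakap on the same strand, at a mean of 31.5 FPKM over 9 libraries, and the sources used here do not say how shared reads were split.

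Akap11 went from 22.5 ± 1.53 to 19.5 ± 1.03 FPKM with overlapping ranges (log2 fold change -0.19, limma adjusted p = 0.0252). The call was lost without vehicle replicate 1 or 3 or YKL-05-099 replicate 3 or 4, at adjusted p from 0.0615 to 0.0683, and after TPM scaling (-0.18). Not called were the centrosome and Golgi scaffold gene Akap9 (34.9 ± 2.64 and 34.6 ± 2.20 FPKM), Akap7 (14.5 ± 1.09 and 14.3 ± 1.73 FPKM) and Akap13 (12.4 ± 1.29 and 13.6 ± 0.715 FPKM), which passed without vehicle replicate 3 (log2 fold change 0.19). Akap9 overlaps Cyp51 on the opposite strand, and the sources used here do not say whether counting used strand. With the pan-leukocyte covariate the calls of Akap1 (-0.30), Akap2 (0.36), Akap8 (0.16), Akap8l (0.07), Akap10 (0.08) and Akap11 (-0.25) were lost. After median-of-ratios scaling Akap2 and Akap8 no longer passed, at 0.16 and 0.12, and after quantile normalization Akap8 and Akap10, at 0.12 and 0.16. Akap3, Akap4 and Akap14, anchors of the sperm tail, were at or below 0.0269 FPKM, and Akap6 and Akap17b did not reach the filter either, with highest values in the mice of 0.881 and 0.521 FPKM.

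Upstream of the anchoring protein gene that fell most, the 250 bases before the only Akap5 start site in the table held no TGACG in either orientation.
Akap5, chr12:76324641-76324890, plus strand: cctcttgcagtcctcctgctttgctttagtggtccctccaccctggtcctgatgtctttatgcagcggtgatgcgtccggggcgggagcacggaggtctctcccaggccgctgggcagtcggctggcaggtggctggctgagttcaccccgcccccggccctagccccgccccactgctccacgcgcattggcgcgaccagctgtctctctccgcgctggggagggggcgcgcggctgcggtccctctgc

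Of 21 phosphodiesterase records 7 were tested. Pde3b and Pde10a rose and the other 5 were not called, where 43.2% of all genes were. Pde3b (chromosome 7, 114415281 to 114539251), whose product hydrolyses cyclic AMP, is inhibited by cyclic GMP and is activated by insulin signaling, was at 6.64, 7.30, 6.91 and 10.5 FPKM in vehicle. It reached 14.2, 17.0, 16.6 and 18.4 FPKM in YKL-05-099 libraries. Vehicle replicate 4 was above the other vehicle libraries and still below every treated library (log2 fold change 1.006, SE 0.127, limma adjusted p = 0.000253). Pde10a (chromosome 17, 8525372 to 8986648), which hydrolyses cyclic AMP and cyclic GMP, was at 1.67, 1.46, 1.62 and 1.64 FPKM in vehicle and at 6.22, 5.18, 3.79 and 3.46 FPKM in treated libraries. The treated values were spread widely, with a coefficient of variation of 27.4% against 5.96% in vehicle, but none overlapped vehicle (log2 fold change 1.10, SE 0.141, limma adjusted p = 0.000282). With the pan-leukocyte covariate, which is lower in the treated libraries, both narrowly missed the threshold, Pde3b at 0.83 (limma adjusted p = 0.0749) and Pde10a at 1.06 (limma adjusted p = 0.0565).

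The upstream sequence of Pde10a, the member phosphodiesterase with the larger fold change, is shown for its first RefSeq start site in the table, which lies inside the deposited locus. It held no match to either motif form.
Pde10a, chr17:8801495-8801692, plus strand: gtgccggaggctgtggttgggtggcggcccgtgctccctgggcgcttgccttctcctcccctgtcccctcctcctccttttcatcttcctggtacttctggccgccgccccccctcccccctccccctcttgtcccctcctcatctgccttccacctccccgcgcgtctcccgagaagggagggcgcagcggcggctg

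Pde1a, a calcium and calmodulin-activated enzyme, had the highest mean level in both mouse groups among the members that degrade cyclic nucleotides, at 18.6, 16.5, 15.1 and 26.9 FPKM in vehicle and 22.4, 22.2, 18.8 and 20.6 FPKM in YKL-05-099 libraries. The treated values all lay inside the vehicle range (log2 difference 0.15, limma adjusted p = 0.445). The wide vehicle range came from replicate 4, and without it the difference was 0.31 and passed (limma adjusted p = 0.0118). Pde7b, a cyclic AMP-specific enzyme, was at 2.69, 2.14, 1.76 and 2.38 FPKM in vehicle and at 7.77, 2.98, 3.90 and 2.01 FPKM in treated libraries. YKL-05-099 replicate 1 was the highest and replicate 4 lay within the vehicle range. Its log2 difference of 0.56 had a 95% interval from -0.04 to 1.17, and it passed without YKL-05-099 replicate 4 (0.78, limma adjusted p = 0.0293). Without replicate 1, the highest treated library, it was 0.27 (limma adjusted p = 0.228). The related Pde7a was at 4.90 ± 0.864 and 5.52 ± 0.410 FPKM and was not called with all libraries (log2 difference 0.15), but passed without vehicle replicate 1 (0.25). With single libraries left out its difference ran from 0.08 to 0.25, and that of Pde1a from 0.05 to 0.31.

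The cyclic GMP-specific Pde5a was at 13.1 ± 1.35 FPKM in vehicle and 11.6 ± 0.284 FPKM after YKL-05-099 (log2 difference -0.16, limma adjusted p = 0.0847). It was called lower after median-of-ratios (-0.22) or quantile scaling (-0.24) and without vehicle replicate 4 (-0.22). Pde6d had the highest level of all phosphodiesterase records by name, although its product is a carrier of prenylated proteins and no phosphodiesterase. It was at 25.0, 28.1, 25.4 and 30.8 FPKM in vehicle and at 28.7, 28.96, 28.99 and 31.7 FPKM in treated libraries, with overlapping ranges (log2 difference 0.12, limma adjusted p = 0.199). Without vehicle replicate 4 it passed (0.17, limma adjusted p = 0.0329). The 2 Pde2a records together gave 1.11, 1.02, 0.780 and 0.858 FPKM in vehicle and 0.480, 0.479, 0.555 and 0.283 FPKM in treated libraries. Reads were split between these records in a different way in each library, so they are given as a sum and have no test. Pde3a was also under the filter, and with no filter on low values it was called lower (log2 difference -0.24, from values of at most 0.367 FPKM). The remaining 11 phosphodiesterase records under the filter, Pde1b, Pde1c, Pde6a, Pde6b, Pde6c, Pde6g, Pde6h, Pde8a, Pde8b, Pde9a and Pde11a, did not exceed 0.780 FPKM in any library.

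Set beside the Pde4 genes, which hydrolyse cyclic AMP only, the member phosphodiesterases that can hydrolyse cyclic AMP summed to 37.8, 33.3, 31.5 and 47.3 FPKM in vehicle and to 57.2, 53.4, 50.1 and 50.4 FPKM in YKL-05-099 libraries. The 4 Pde4 genes summed to 31.3 ± 2.08 and 77.2 ± 0.836 FPKM. Members thus made up 54.2% ± 3.85 of the FPKM of these phosphodiesterase genes in vehicle and 40.6% ± 1.65 after treatment, a description with no test. Pde1a, whose product acts on both cyclic AMP and cyclic GMP, alone made up 27.7% ± 4.18 and 16.1% ± 1.08. The sums do not weigh how far each enzyme prefers cyclic AMP.

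**Figure D3:**
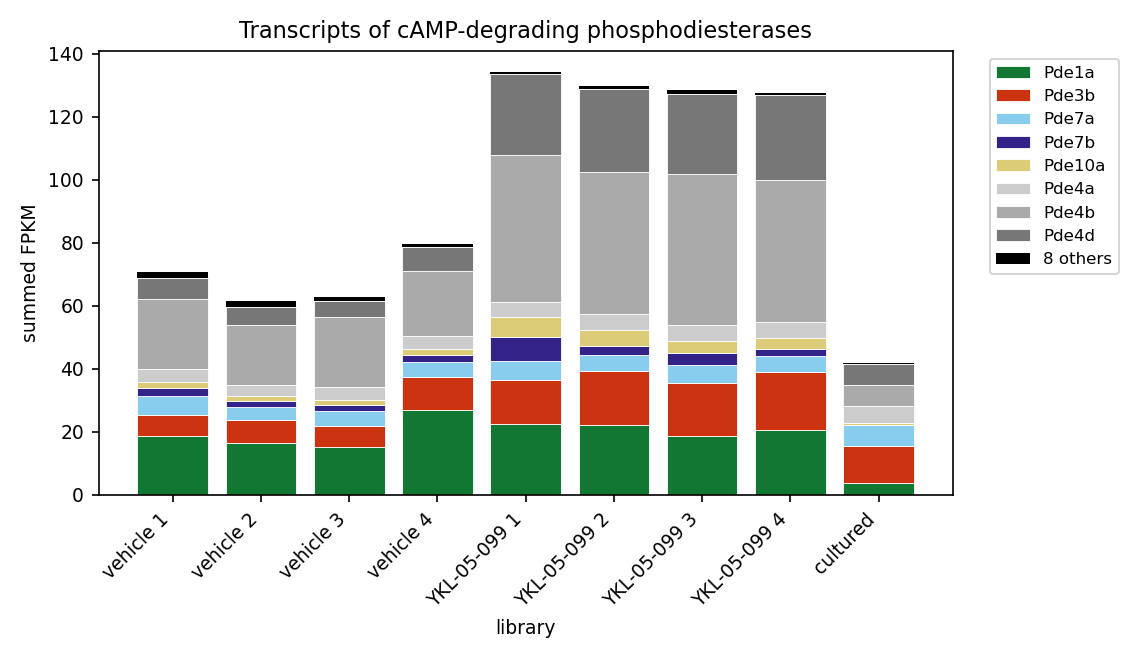
Summed FPKM of the phosphodiesterase genes that can hydrolyse cyclic AMP (y axis), by library (x axis); 5 members are coloured, 3 Pde4 genes are grey and the 8 remaining genes are black. The total is 61.6 to 79.8 FPKM in vehicle, 127.5 to 134.2 FPKM in YKL-05-099 libraries and 41.9 FPKM in culture.

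Of 10 adenylyl cyclase genes 3 were tested, and limma called 0, where 43.2% of all genes were called. With 3 genes this count says little. Of the 3, 0 had an unadjusted p under 0.05 by limma. Adcy6, a calcium-inhibited cyclase and the main one by level, was at 36.0, 32.7, 40.6 and 44.3 FPKM in vehicle and 38.3, 35.5, 34.4 and 40.0 FPKM in YKL-05-099 libraries. The treated values lay inside the vehicle range (log2 difference -0.04, 95% interval from -0.24 to 0.16). With the pan-leukocyte covariate Adcy6 was called lower (-0.42, limma adjusted p = 0.0304). Adcy7 was at 8.65 ± 0.737 and 8.25 ± 0.480 FPKM (95% interval of the log2 difference from -0.21 to 0.09) and Adcy9 at 4.64 ± 0.316 and 4.18 ± 0.159 FPKM (from -0.27 to 0.02). Adcy9 was called lower after quantile normalization (-0.23). Adcy6 held 72.1% ± 2.80 of all adenylyl cyclase FPKM in vehicle and 72.5% ± 2.08 after treatment, ranges that overlapped. The shares of 3 cyclases at low levels did not overlap: Adcy1 held between 1.34% and 1.77% in vehicle and between 1.87% and 3.10% after treatment. Adcy3 held between 0.568% and 0.866% and then between 0.242% and 0.443%, and Adcy4 between 0.133% and 0.593% and then between 0.0924% and 0.119%. These shares are descriptions with no test. By FPKM, the vehicle and treated ranges overlapped for Adcy1 and were separate for Adcy3 and Adcy4. They were separate for 40.0% of all genes tested, which these 3 low cyclases were not among.

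The other 7 cyclases were low. Adcy1, a calmodulin-activated cyclase best known from neurons, missed the filter by 1 library, at 0.907, 0.766, 0.985 and 0.786 FPKM in vehicle and 0.969, 1.54, 1.42 and 1.44 FPKM in treated libraries. Without a filter it missed the threshold narrowly (log2 difference 0.33, limma adjusted p = 0.0503). In the same fit Adcy3 (0.446, 0.402, 0.316 and 0.337 FPKM in vehicle, 0.175, 0.220, 0.135 and 0.131 FPKM in treated libraries) and Adcy4 (0.308, 0.189, 0.212 and 0.0777 FPKM against 0.0478, 0.0510, 0.0477 and 0.0639 FPKM) were called lower, at levels well under 1 FPKM. Adcy2, Adcy5, Adcy8 and the soluble cyclase gene Adcy10 did not exceed 0.0668 FPKM.

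**Figure D4:**
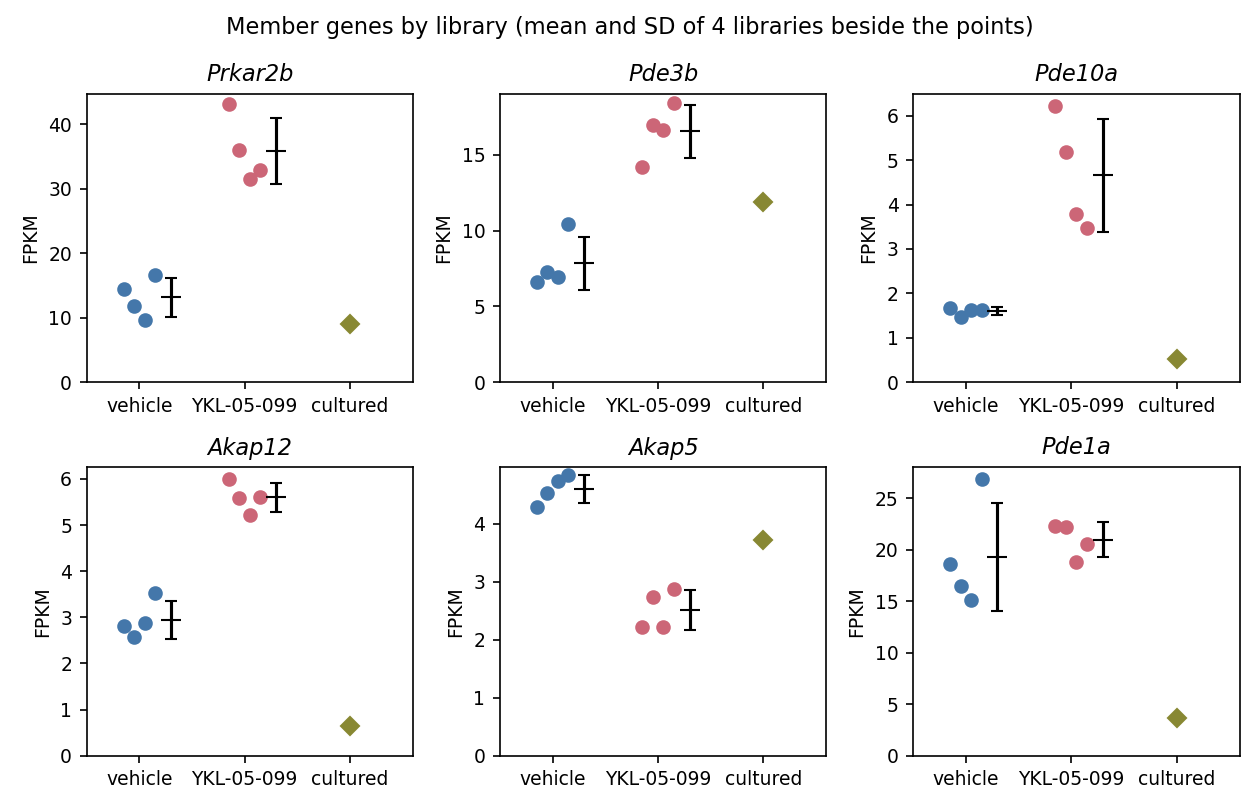
FPKM (y axis, from 0) of the 5 members with a called change of at least 0.5 log2 units and of Pde1a, in each library (points; bars beside them give the mean and SD of 4 libraries; the diamond is the single cultured library). Vehicle and YKL-05-099 points do not overlap for Prkar2b, Pde3b, Pde10a, Akap12 and Akap5, and do for Pde1a.

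Other genes of the pathway were taken from lists of textbook members. Of the PKA inhibitor peptide genes, whose products bind and block free catalytic subunits, 2 of 3 were tested. Pkia rose from 31.7, 32.4, 30.2 and 39.1 FPKM to 69.2, 70.1, 81.3 and 63.8 FPKM (log2 fold change 1.07, limma adjusted p = 3e-05), without overlap, and still passed with the pan-leukocyte covariate (1.15). Pkig fell from 88.6 ± 3.22 to 74.3 ± 1.62 FPKM (log2 fold change -0.25). The covariate left its fold change at -0.25, but it did not pass (limma adjusted p = 0.10). Pkig was the higher of the 2 inhibitor genes in every vehicle library. In 3 of the 4 treated libraries it was still the higher.

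Among receptors that couple to the stimulatory G protein, 6 of 47 found were expressed enough to be tested, and limma called 4 higher and 0 lower, with 0 lower at an unadjusted p under 0.05. Among those that rose were the serotonin receptor gene Htr4 (1.72 ± 0.426 to 4.01 ± 0.50 FPKM), the prostaglandin E2 receptor gene Ptger4 (1.83 ± 0.366 to 3.54 ± 0.151 FPKM) and the adhesion receptor gene Adgrg6 (14.7 ± 2.15 to 19.7 ± 2.11 FPKM). The median log2 fold change of the 6 was 0.55. Over all genes 28.0% were called higher and the median was 0.05. With the pan-leukocyte covariate none of the 4 passed: Htr4 was at 0.82 against 0.89 without it, Ptger4 at 0.53 against 0.69, and Adgrg6 turned from 0.40 to -0.05. Of the G protein alpha subunit genes Gnas, which encodes the stimulatory subunit, was level at 458.5 ± 10.6 and 463.0 ± 1.99 FPKM, Gnai2 was not called and Gnai3 fell from 87.3 ± 6.26 to 76.1 ± 2.84 FPKM. The call of Gnai3 was lost without YKL-05-099 replicate 2 (log2 fold change -0.17, limma adjusted p = 0.0545). With the covariate it did not pass either, at -0.20 against -0.19 without it.

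The counts of the short lists that follow stand beside 28.0% of all genes called higher and 15.1% called lower. Of 2 genes for exporters of cyclic nucleotides both rose, Abcc4 from 2.39 ± 0.220 to 3.58 ± 0.248 FPKM and Abcc5 from 68.0 ± 5.52 to 86.9 ± 4.48 FPKM. Of 17 genes of other cyclic AMP effectors 3 were tested and 1 was called: the exchange factor gene Rapgef2 rose from 7.22 ± 0.466 to 9.38 ± 0.637 FPKM, while the cyclic AMP-activated exchange factor gene Rapgef3 (EPAC1; 12.1 ± 1.54 and 10.8 ± 1.78 FPKM) and Rapgef6 were not called. Of 7 tested genes of receptor partners and desensitization 2 rose: the calcitonin-family receptor partner Ramp1 (15.5 ± 2.40 to 23.1 ± 4.31 FPKM) and the receptor kinase gene Grk5 (2.38 ± 0.0852 to 3.29 ± 0.296 FPKM). In the list of calcineurin and other PKA-related genes Pde4dip rose (15.6 ± 1.07 to 17.9 ± 0.919 FPKM) and the calcineurin catalytic gene Ppp3cc fell (16.2 ± 2.40 to 13.2 ± 0.350 FPKM) among 4 tested. Both calls were lost when some single libraries were left out: 5 of 8 for Pde4dip, at adjusted p up to 0.0688, and 7 of 8 for Ppp3cc, up to 0.119. On the cyclic GMP side the kinase gene Prkg2 rose from 12.7 ± 2.35 to 17.0 ± 1.27 FPKM and the natriuretic peptide receptor gene Npr1 was not called (43.9 ± 1.92 and 41.6 ± 0.836 FPKM). With the covariate none of these calls passed, at log2 fold changes with and without it of 0.22 and 0.43 for Abcc4, 0.27 and 0.35 for Abcc5, 0.27 and 0.34 for Rapgef2, 0.86 and 0.54 for Ramp1, and 0.34 and 0.34 for Grk5. For Pde4dip they were 0.02 and 0.19, for Ppp3cc -0.19 and -0.26, and for Prkg2 0.28 and 0.41. Leukocyte markers were lower in all treated libraries; their part in these results was not tested beyond that fit.

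The cultured library was set beside the vehicle libraries to see how the same genes stood in cells outside the mouse. Pde1a was apart in culture, at 3.68 FPKM against 15.1 to 26.9 FPKM in vehicle, 5.24-fold lower than the vehicle mean. A gene was taken as apart when its value lay beyond the 8 mouse libraries and differed from the mean of the vehicle libraries by 2 or more units of log2(FPKM + 1). That held for 5.14% of 12296 genes, 2.08% higher and 3.06% lower, and is a rule of size for a single library, with no test. Pde1a was the only such member, at -2.08 log2 units, and without vehicle replicate 4 it was not. A distance of 1 log2 unit also took in Adcy7, Akap2, Akap12 and Pde7b. Beyond the range of the mouse libraries at any distance were 19 of the 26 tested members, 4 above and 15 below, against 73.6% of all genes.

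Anchoring protein and phosphodiesterase genes made up most of the members that were lower in culture. They also made up most of the tested members, 11 and 7 of 26. Akap12 stood at 0.641 FPKM, below all vehicle (2.57 to 3.53 FPKM) and treated libraries. Pde7b was listed at 0 in culture, where it was 1.76 to 2.69 FPKM in vehicle. Pde10a was at 0.512 FPKM, under its lowest vehicle value of 1.46 FPKM, and Akap2 at 35.0 FPKM against 75.1 to 84.4 FPKM. Adcy7 went the other way: it was 2.98-fold above the vehicle mean, at 25.8 FPKM against 7.99 to 9.56 FPKM in vehicle libraries. It held 37.6% of adenylyl cyclase FPKM in culture and 16.4% ± 2.08 in vehicle, while Adcy6, at 39.8 FPKM, lay inside the vehicle range. Adcy9 was at 1.86 FPKM, below its vehicle range of 4.35 to 5.09 FPKM. The phosphodiesterase records Pde6d, at 40.5 FPKM, and Pde7a, at 6.68 FPKM, were above every mouse library.

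Of the PKA subunits Prkaca was higher in culture (84.2 FPKM) than in any mouse library, Prkar1a (220.7 FPKM) was lower than in any, and Prkacb (35.0 FPKM) and Prkar2a (13.1 FPKM) lay inside the mouse range. Prkar2b stood at 9.06 FPKM, just under the lowest vehicle library (9.66 FPKM). The treated libraries were thus the only ones above 16.6 FPKM for this gene. Pde3b (11.9 FPKM) lay between the vehicle and treated ranges, and Akap5 (3.72 FPKM) likewise lay between them. Pkia was at 13.5 FPKM in culture, below every mouse library. The sort is described for ascites cells, and the sums of the leukocyte markers given above were lowest in culture. The part of these markers in the differences was not tested.

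**Figure D5:**
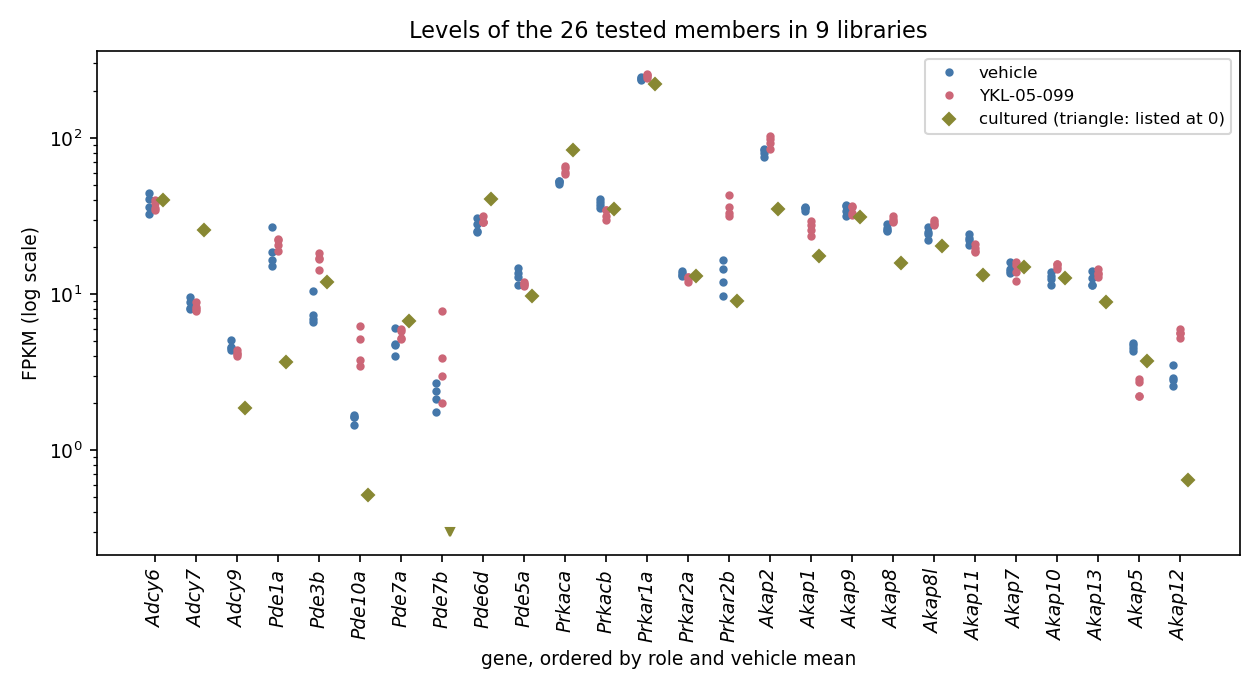
FPKM on a log scale (y axis) of the 26 tested members, ordered by role (x axis), with vehicle points at the left, YKL-05-099 points in the middle and the cultured library at the right of each gene; a triangle marks the value listed at 0 (Pde7b). Prkar1a is highest in every library, at 220.7 to 258.1 FPKM.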

How the data were processed

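RNA of 9 libraries was compared: 4 vehicle, 4 YKL-05-099 and 1 cultured, grouped by the sample titles. The authors deposited 1 FPKM value and a status per gene and library, per the file headers; bcl2fastq 2.19 and GRCm38 are named in the submitters' processing notes, and the aligner and quantifier are not given in sources used here. Of 48302 rows, 65 that repeat a gene identifier (shorter locus) and 7 genes with a failed estimate were left out. No member row had a status other than OK. Deposited starts count from 0, so 1 was added. FPKM are not counts; depth is approximate and gives no interval for a gene, though low values rest on few fragments.

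A limma 3.58.1 model with a mean-variance trend (R 4.3.3) was fitted to log2(FPKM + 1) of the 8 mouse libraries, with Benjamini-Hochberg adjustment over 11788 genes and a threshold of 0.05. Fold changes on this scale understate those of low genes. The function was tested on simulated data. Alternatives were other pseudocounts, filters, scalings, covariates and left-out libraries. Named genes were members called with at least 0.5 log2 units, the highest member of each role, members apart in culture, and up to 4 genes per pathway list by smallest p; other members are given in brief. One pathway gene that this rule names is not reported here. Members and lists were chosen with earlier results of these data known.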

Additional observations from a re-analysis of the deposited data

Results flagged for a closer look

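Within each mouse group of 4 libraries, a library was picked out when its distance to the nearest other library exceeded 0.829 of the group's range. Of 52 such groups (26 tested members in 2 conditions) this held for 1, Pde6d in YKL-05-099 replicate 4, at 31.7 FPKM against 28.7 to 28.99 FPKM in the other 3 libraries. Chance gives about 1 in 20 groups.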

How the results depend on the processing

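The 9 higher and 4 lower member calls were recomputed under 20 other settings. Prkar2b and Akap5 passed in the same direction under every setting that tested them; Pde3b, Pde10a and Akap12 under every one but the pan-leukocyte covariate. The filter at a mean of 5 FPKM left out Akap5, Akap12 and Pde10a. With the covariate, 1 member rose and 2 fell, Adcy6 being the added fall, 1 other pathway gene was called higher by limma and 0 lower (1 lower at an unadjusted p under 0.05), and over all genes 483 rose and 281 fell; the median standard error was 1.83 times larger, and the log2 fold change of Adgrg6 reversed to -0.055. Members called lower were 7 without a filter (Adcy3, Adcy4 and Pde3a added) and 7 after quantile normalization. Pathway genes called lower were 5 after median-of-ratios and 5 after quantile scaling, and 1 to 4 with single libraries left out. These scalings moved the median of all genes by -0.05, and the share of higher calls went from 64.9% to 50.5% and 51.0%. Leaving out single libraries gave 8 to 11 members higher and 3 to 5 lower. Members apart in culture were 3 and 2 at pseudocounts of 0.1 and 0.5, 2 after TPM scaling, 0 after quantile normalization, 5 at 1 log2 unit and 0 to 1 with a vehicle library left out; over all genes 1240 were apart at a pseudocount of 0.1 and 2482 at 1 log2 unit. With replicate numbers as a block, the member calls were 9 and 4, and 3148 genes rose and 1682 fell. Deviations of same-numbered libraries correlated at -0.02, 0.13, -0.05 and 0.17, so the numbers were not taken as pairs. The cause of these shifts was not tested.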
